A study of Homo sapiens with 6 samples.

Results

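The complement system was examined through 8 genes by RNA sequencing in HK-2, an immortalised line of human proximal tubule epithelium. The genes are C3, CFB, C1R, C1S, CFI, CD46, CD55 and CD59, taken by name from the FPKM table, where all 8 had a row among 33392 genes. The 6 libraries came from cells given TGF-β1, 3 with a scramble siRNA and 3 with an siRNA against the kinase DYRK2 (siDYRK2). TGF-β1 was thus common to all libraries, and no library without it was analysed here. The sample titles all give 48 h, without saying from which step it was counted. The series concerns DYRK2 in renal fibrosis, and the comparison asks which of these transcripts differed when DYRK2 was silenced. Whether the replicates of a group came from separate cultures is not stated, and the spread that the p-values rest on may therefore be technical.

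Complement is a cascade of plasma and tissue proteases that marks surfaces with fragments of C3 and can end in a membrane pore. C1r and C1s are the proteases that start the classical pathway, and factor B is the protease subunit of the alternative pathway convertase, which cleaves C3. Host cells protect themselves with membrane regulators. CD46 is a cofactor for the cleavage of C3b and C4b by factor I, CD55 speeds the decay of convertases, and CD59 blocks assembly of the pore. Tubular epithelium can make several of these proteins itself, and complement activation in the tubule is a known feature of kidney injury.

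DYRK2 stood at 5.84, 6.06 and 5.96 FPKM in the scramble libraries and at 1.45, 1.54 and 1.49 FPKM in the siDYRK2 libraries, so the target was lower in all 3. The summed FPKM per library was 252318 to 255378, and the number of fragments behind it is unknown. All 5 epithelial markers looked up (EPCAM, CDH1, KRT8, KRT18 and KRT19) were expressed, with a summed level of 333 to 350.8 FPKM in the scramble and 238 to 249.9 FPKM in the siDYRK2 libraries. KRT19 had the highest mean of these markers (127.6 FPKM over all libraries). CDH1 added little to the sum, with a mean of 2.97 FPKM with scramble and 1.17 FPKM with siDYRK2. None of 9 proximal tubule markers had a mean of 0.5 FPKM, and their sum was at most 0.7 FPKM in any library, so defining markers of the labelled tissue were near 0 or had no row. Markers of cells that make much complement were near 0 or had no row. Of 6 hepatocyte genes 4 had a row, and their sum was at most 0.26 FPKM. Of 6 fibroblast genes 5 had a row, with a sum of 0.35 to 0.42 FPKM with scramble and 0.61 to 0.73 FPKM with siDYRK2. The sum over 5 endothelial genes was at most 0.16 FPKM. Of 8 immune markers 4 had a row, and of these CD68, a lysosomal protein, passed 0.5 FPKM. The summed immune level, nearly all CD68, was 11.33 to 17.75 FPKM with scramble and 17.03 to 17.85 FPKM with siDYRK2, and no other immune gene with a row exceeded 0.85 FPKM. The part of these marker levels in the results was not tested.

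C3, CFB and C1S were lower in the siDYRK2 libraries, while C1R was not called (log2 fold change 0.10). Among the membrane regulators CD55 and CD59 were higher and CD46 was lower. Of the 7 members that reached the mean of 0.5 FPKM needed for testing, 2 rose and 4 fell by limma at an adjusted p under 0.05. Over all 15121 genes tested, 20.4% rose and 17.9% fell, together 38.3%. Groups did not overlap for 6 of the 7 members, against 51.7% of all tested genes. The median absolute log2 fold change was 0.40 for the 7 members and 0.17 for all tested genes. The members, like the gene lists used below, were chosen with earlier results of these data known. The comparison with all tested genes is therefore a description and not independent evidence. CFB and C1S passed the minimum only through their scramble level. A log2 fold change is the siDYRK2 mean minus the scramble mean of log2(FPKM + 0.5), which understates changes at low levels.

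**Figure D1:**
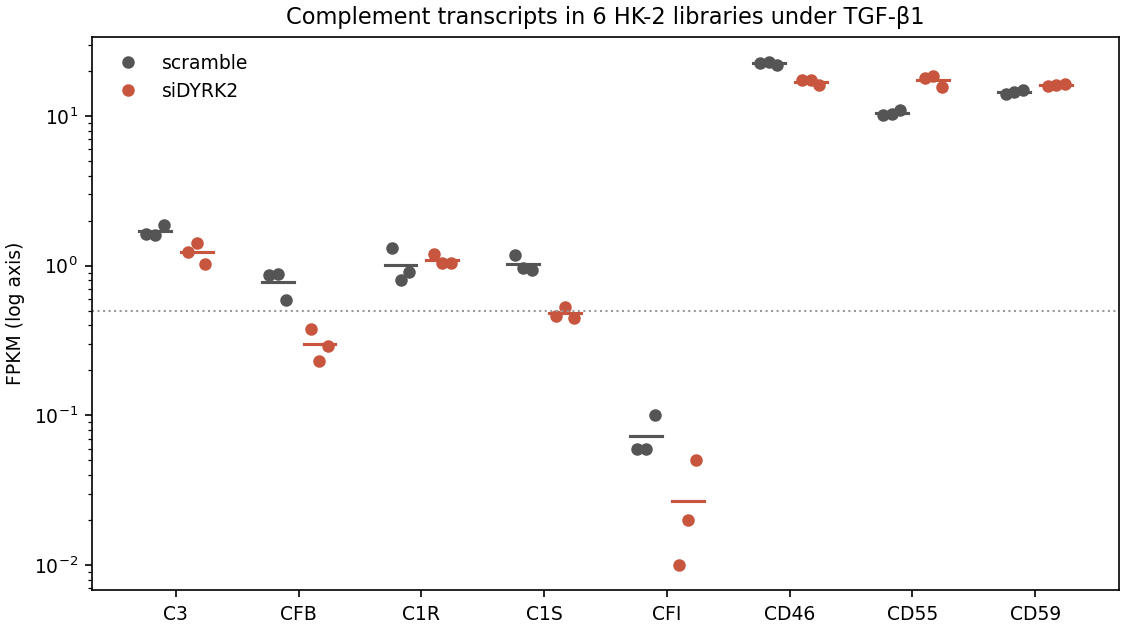
FPKM of each complement gene (log axis) in the 3 scramble (grey) and 3 siDYRK2 (red) libraries, with a bar at each group mean and a dotted line at 0.5 FPKM. The membrane regulators CD46, CD55 and CD59 lie above 10 FPKM in every library, while C3, CFB, C1R, C1S and CFI lie below 2 FPKM. The CD55 groups are far apart, with scramble at 10.13 to 10.99 and siDYRK2 at 15.69 to 18.65.

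CFB encodes factor B (GRCh38 chromosome 6, 31945650 to 31952084, plus strand). Its level was 0.87, 0.88 and 0.59 FPKM with scramble and 0.38, 0.23 and 0.29 FPKM with siDYRK2. Every siDYRK2 library lay below every scramble library. The mean fell from 0.78 ± 0.165 to 0.300 ± 0.0755 FPKM (n = 3, SD), or 38.5% of the level with scramble. Its log2 fold change was −0.67 (adjusted p = 0.0084 by limma, SE 0.141), and −1.14 with a pseudocount of 0.1. Without scramble replicate 1 or scramble replicate 2 the mean was below the expression minimum and CFB was not tested.

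Exons of CFB are shared with AL645922.1, an annotated protein-coding gene on the same strand that also overlaps C2. This neighbour was listed at 0 in all 3 scramble libraries and at 0.12, 0.21 and 0.07 FPKM with siDYRK2. The sum of both genes was 0.87, 0.88 and 0.59 FPKM with scramble and 0.50, 0.44 and 0.36 FPKM with siDYRK2. The summed level was also lower with siDYRK2 (log2 fold change −0.45, adjusted p = 0.033 by limma), an alternative chosen after the values were seen. The difference was smaller on this sum than on CFB alone. C2, whose exons also overlap those of CFB on the same strand, was not part of the sum. C2 stood at 0.17, 0.13 and 0.14 FPKM with scramble and at 0.23, 0.13 and 0.15 FPKM with siDYRK2. A sum that includes C2 was not tested.

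C3, the protein on which all activation routes converge (chromosome 19, 6677704 to 6730562, minus strand), stood at 1.64, 1.61 and 1.87 FPKM with scramble and at 1.24, 1.43 and 1.03 FPKM with siDYRK2. The groups did not overlap, although the highest siDYRK2 library lay close to the lowest scramble library. C3 fell from 1.71 ± 0.142 to 1.23 ± 0.200 FPKM (n = 3, SD), and the log2 fold change was −0.35 (adjusted p = 0.034 by limma, SE 0.105). This call was lost when any library other than siDYRK2 replicate 2 was left out (adjusted p = 0.062 to 0.099, log2 fold change −0.38 to −0.27). It was also lost without the filter on low values (adjusted p = 0.097).

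Within a library, the ratio of C3 to CFB does not depend on how the library was scaled. It was 1.89, 1.83 and 3.17 with scramble and 3.26, 6.22 and 3.55 with siDYRK2, so C3 was the more abundant transcript in all 6 libraries. The log2 ratio differed by 0.91 (exact two-sided permutation p = 0.1, the smallest that 3 against 3 libraries allow, and 0.15 adjusted over 6 such ratios). With CFB summed with AL645922.1, an alternative chosen after the values were seen, the ratio with siDYRK2 was 2.48, 3.25 and 2.86. These values overlapped those with scramble, and the log2 difference was 0.36 (exact two-sided permutation p = 0.3). CFD encodes factor D, the protease that activates factor B. It stood at 3.99 ± 0.597 and 4.05 ± 0.531 FPKM (n = 3, SD; adjusted p = 0.91 by limma). CFP, which encodes the convertase stabiliser properdin, was at no more than 0.04 FPKM.

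C1R and C1S lie near each other on chromosome 12 (C1R at 7080199 to 7092607, minus strand, and C1S at 6988259 to 7071032, plus strand), and their products form the protease tetramer of C1. The level of C1S was 1.18, 0.96 and 0.94 FPKM with scramble and 0.46, 0.53 and 0.45 FPKM with siDYRK2. All siDYRK2 values lay well below the lowest scramble value. C1S fell from 1.03 ± 0.133 to 0.480 ± 0.0436 FPKM (n = 3, SD), to 46.8% of the scramble mean, with a log2 fold change of −0.64 (adjusted p = 0.0031 by limma, SE 0.105). With a pseudocount of 0.1 the log2 fold change was −0.95.

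For C1R the values were 1.32, 0.80 and 0.91 FPKM with scramble and 1.20, 1.05 and 1.05 FPKM with siDYRK2, and the groups overlapped. Its log2 fold change was 0.10 (95% interval −0.22 to 0.42, adjusted p = 0.61 by limma), and −0.003 without scramble replicate 2. C1S and C1R were at nearly equal levels with scramble, with a ratio of 0.894, 1.20 and 1.03. In the siDYRK2 libraries the ratio was 0.383, 0.505 and 0.429, below every scramble library (log2 difference −1.25, exact two-sided permutation p = 0.1, adjusted 0.15). C1RL, a relative of C1R whose exons overlap it on the same strand, stood at 6.28 ± 0.363 and 6.18 ± 0.556 FPKM (n = 3, SD; adjusted p = 0.82 by limma). C1S shares exons in the same way with EMG1, which was at 9.90 to 11.06 FPKM with scramble and 10.78 to 12.62 FPKM with siDYRK2, and its groups overlapped.

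CFI encodes factor I, the protease that inactivates C3b and C4b with the help of CD46 (chromosome 4, 109740694 to 109802179, minus strand). It was the least abundant member, at 0.06, 0.06 and 0.10 FPKM with scramble and 0.01, 0.02 and 0.05 FPKM with siDYRK2. These values are a few steps of the 2 decimals in the table, and the gene was below the minimum for testing. Without that minimum its log2 fold change was −0.12 (adjusted p = 0.17 by limma). Its exons overlap those of AC126283.2 on the same strand, which was at 0 with scramble and at 0.08, 0.14 and 0 FPKM with siDYRK2. Summed over both genes the level was 0.06, 0.06 and 0.10 against 0.09, 0.16 and 0.05 FPKM, and the groups overlapped. The ratio of CFI to CFB was 0.102 ± 0.0583 with scramble and 0.0952 ± 0.0734 with siDYRK2 (n = 3, SD; exact two-sided permutation p = 0.9).

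The membrane regulators were the abundant members. CD46 (chromosome 1, 207752057 to 207795513, plus strand), a transmembrane protein, stood at 22.73, 23.03 and 22.12 FPKM with scramble and at 17.38, 17.45 and 16.21 FPKM with siDYRK2. The gap between the groups was several times the range within either. CD46 fell from 22.6 ± 0.464 to 17.01 ± 0.697 FPKM (n = 3, SD), to 75.2% of the level with scramble. Its log2 fold change was −0.40 (adjusted p = 3.3e-04 by limma, SE 0.0398).

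CD55, the decay-accelerating factor (chromosome 1, 207321376 to 207386804, plus strand), had the largest absolute log2 fold change of the 7 tested members on the log2(FPKM + 0.5) scale, although CFB and C1S changed more as a ratio of means. Its level was 10.13, 10.30 and 10.99 FPKM with scramble and 18.01, 18.65 and 15.69 FPKM with siDYRK2. The siDYRK2 library with the lowest value was still above all scramble libraries. CD55 rose 1.67-fold from 10.5 ± 0.455 to 17.5 ± 1.56 FPKM (n = 3, SD), and the log2 fold change was 0.71 (adjusted p = 2.8e-04 by limma, SE 0.0679). Of all tested genes 96.2% had a smaller absolute log2 fold change than CD55, against 84.3% for CD46.

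CD59, the pore inhibitor (chromosome 11, 33703010 to 33736491, minus strand), moved little. It stood at 14.15, 14.46 and 14.87 FPKM with scramble and at 15.94, 16.24 and 16.42 FPKM with siDYRK2. The groups did not overlap, and the spread within each was small. CD59 rose 1.12-fold from 14.5 ± 0.361 to 16.2 ± 0.243 FPKM (n = 3, SD), a log2 difference of 0.16 (adjusted p = 0.011 by limma, SE 0.0346). Its absolute change was larger than that of 47.5% of the tested genes. AL049629.2, a gene on the same strand with shared exons, was at 0.46, 0.74 and 0.84 FPKM with scramble and 1.29, 1.11 and 1.5 FPKM with siDYRK2. Summed with it, CD59 had a log2 fold change of 0.20 (adjusted p = 0.0061 by limma).

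The order of the 3 membrane regulators changed between the groups. FPKM is scaled per transcript length, so levels of different genes can be set side by side. In the scramble libraries CD46 was highest, followed by CD59 and then CD55, with no overlap between neighbours. In the siDYRK2 libraries the ranges overlapped for CD55 (15.69 to 18.65 FPKM), CD46 (16.21 to 17.45 FPKM) and CD59 (15.94 to 16.42 FPKM), so their order could not be told. Below them with scramble came C3, then C1S and C1R, whose ranges overlapped, then CFB, which overlapped C1R, and last CFI. With siDYRK2 the next levels were C3 and C1R, which overlapped, then C1S, CFB and CFI without overlap.

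**Figure D2:**
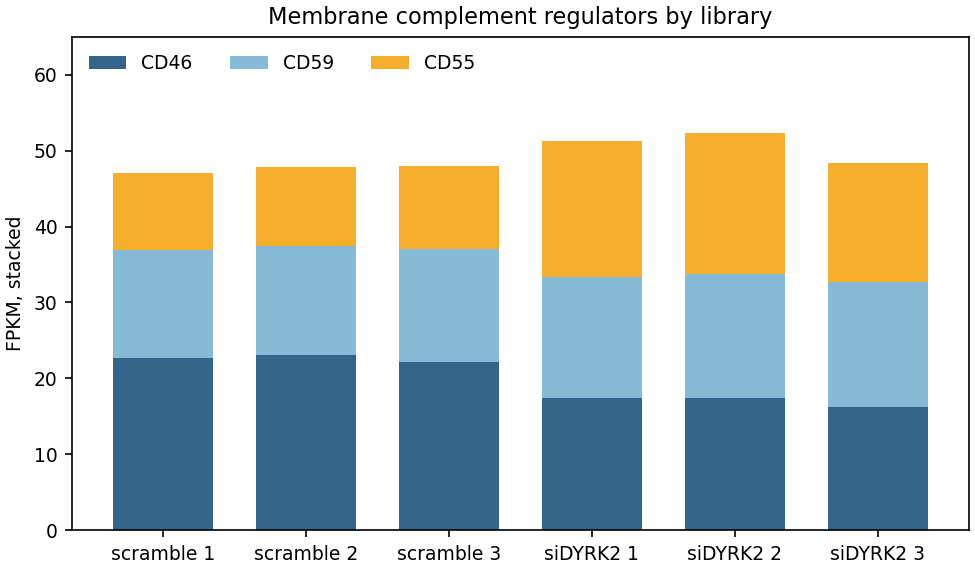
Stacked FPKM of CD46, CD59 and CD55 (y axis, from 0) in each of the 6 libraries (x axis). The total is 47.01 to 47.98 FPKM with scramble and 48.32 to 52.34 FPKM with siDYRK2, and the CD55 section widens as the CD46 section narrows.

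The summed level of the 3 regulators was 47.6 ± 0.514 FPKM with scramble and 50.7 ± 2.09 FPKM with siDYRK2 (n = 3, SD; exact two-sided permutation p = 0.1). CD46 made up 48.4%, 48.2% and 46.1% of that sum with scramble and 33.9%, 33.3% and 33.6% with siDYRK2. CD55 made up 21.6%, 21.6% and 22.9% with scramble and 35.1%, 35.6% and 32.5% with siDYRK2. The composition therefore shifted from CD46 to CD55 while the total differed little. The ratio of CD55 to CD46, chosen after the values were seen, was 0.463 ± 0.0291 with scramble and 1.02 ± 0.0515 with siDYRK2 (n = 3, SD).

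Set against C3, CD55 gained the most. The ratios share C3 as denominator, so their order repeats that of the regulators' own changes. The ratio of CD55 to C3 was 6.15 ± 0.261 with scramble and 14.3 ± 1.12 with siDYRK2, and that of CD59 to C3 was 8.52 ± 0.523 and 13.4 ± 2.34 (n = 3, SD; exact two-sided permutation p = 0.1 for each, adjusted 0.15). The ratio of CD46 to C3 was 13.3 ± 1.32 and 13.99 ± 1.77 (n = 3, SD; exact two-sided permutation p = 0.6), and the groups overlapped.

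Across 6 libraries, the transcripts with the highest Pearson correlation with CD55 on the log2 scale were B4GALT3 (0.9987), EIF2B3 (0.9982) and INPP5F (0.9977). Such values are a description. With 2 groups of 3, a difference between the groups alone gives a high value. INPP5F, for example, stood at 4.53, 4.50 and 4.63 FPKM with scramble and 6.37, 6.38 and 5.88 FPKM with siDYRK2.

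The upstream sequences of CFB, CD46 and CD55 are shown as examples of called members that differed in direction, from the RefSeq promoter table (GRCh38.p14), which matched 6 of the 8 members. Each run is the 250 bases before the RefSeq start site on the plus strand, at chr6:31945845-31946094 for CFB, chr1:207751804-207752053 for CD46 and chr1:207321428-207321677 for CD55. The GENCODE 29 genes begin at 31945650 for CFB and 207321376 for CD55, so these windows lie inside those gene spans. They are upstream of the RefSeq start site only, and positions below are counted from that site. Capitals mark matches, on either strand, to the κB consensus, the STAT palindrome TTCNNNGAA, the interferon-stimulated response element, the AP-1 site TGANTCA, the CRE core TGACGT, the GC box GGGCGG or the TATA box TATAAA. No matches in these 3 windows overlap each other.
CFB: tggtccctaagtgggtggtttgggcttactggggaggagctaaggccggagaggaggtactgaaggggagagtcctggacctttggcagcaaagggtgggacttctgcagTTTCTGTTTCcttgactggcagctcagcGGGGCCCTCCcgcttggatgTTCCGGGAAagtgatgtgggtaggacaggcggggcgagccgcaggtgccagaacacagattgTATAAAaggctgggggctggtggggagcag
CD46: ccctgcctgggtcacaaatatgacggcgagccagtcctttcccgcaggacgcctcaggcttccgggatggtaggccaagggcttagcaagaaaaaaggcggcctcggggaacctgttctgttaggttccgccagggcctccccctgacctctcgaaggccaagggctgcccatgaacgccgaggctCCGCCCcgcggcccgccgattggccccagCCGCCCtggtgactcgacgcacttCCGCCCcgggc
CD55: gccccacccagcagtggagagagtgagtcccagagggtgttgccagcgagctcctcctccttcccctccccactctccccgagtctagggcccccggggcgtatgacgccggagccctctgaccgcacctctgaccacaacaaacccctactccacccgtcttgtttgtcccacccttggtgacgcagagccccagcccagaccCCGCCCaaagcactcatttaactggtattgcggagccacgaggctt

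The CFB window held a TATA box at positions −30 to −25 from the start site, a STAT palindrome, a κB match and an interferon-stimulated response element match. Among 35093 RefSeq windows of this length, 10.7% held the TATA letters, 6.6% the STAT, 10.0% the κB and 3.0% the interferon letters. The CD46 window held 3 GC boxes and the CD55 window 1, a motif present in 42.6% of windows. The window of CD59, another called member, is not printed and also held a STAT palindrome, at positions −128 to −120 from the start site. AP-1 and CRE letters, in 6.6% and 7.1% of windows, were in none of the 3 printed windows. A match describes letters in the window and says nothing about binding.

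Short words in transcripts were looked up as well, because an earlier scan of these data had tied ATCTATA and CATCTAT in 3′ untranslated regions to lower levels with siDYRK2. The siRNA sequence is not given in the sources used here. Of 11626 tested genes with a 3′ untranslated region of at least 50 bases, 14.9% contained either word. Of these genes 29.5% were called lower and 16.8% higher, against 16.7% and 26.2% of the genes without the words. The words were picked from these same data for that difference, so the shares repeat the scan and are not independent evidence. The length of the untranslated region was not matched between genes with and without the words. Only 1 chosen GENCODE 29 transcript was searched for each gene, and other isoforms were not looked at. In these transcripts, CD46 contained 2 such sites in the 3′ untranslated region and CD55 contained 1, while C3 contained the 8-base word CATCTATA in its coding sequence. CD46 and C3 were called lower and CD55 higher. Neither word was found in CFB, C1S, C1R, CFI or CD59, of which CFB and C1S were called lower and CD59 higher. The part of the words in these changes was not tested. The sites are shown with their flanks and the word in capitals.
CD46, position 994 of the 3′ untranslated region: tagtaaaagcCATCTATgtatatgtct
CD46, position 1682 of the 3′ untranslated region: tatattagagATCTATAtatgtataaa
CD55, position 1077 of the 3′ untranslated region: ctattagagtATCTATAttacttgtta
C3, transcript position 825: aattctactaCATCTATAacgagaaggg

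A wider list of 60 complement genes held 40 with a row and 14 that reached the expression minimum, of which 3 rose and 6 fell, beside 20.4% and 17.9% of all tested genes. Besides the 7 tested members these were C1RL, CFD, C5, SERPING1, CLU, ITGB2 and C1QBP, of which 1 rose, 2 fell and 4 did not pass. The median log2 fold change of the 14 was −0.07, against 0.01 for all tested genes. CLU, the fluid-phase pore inhibitor clusterin, fell from 43.4 ± 1.30 to 25.9 ± 1.00 FPKM (n = 3, SD; adjusted p = 2.4e-05 by limma; log2 fold change −0.73). SERPING1, the C1 inhibitor, stood at 2.94 ± 0.217 and 2.68 ± 0.238 FPKM (n = 3, SD; adjusted p = 0.28 by limma), and C5, the precursor of the pore-initiating fragment, at 0.533 and 0.573 FPKM (adjusted p = 0.69 by limma).

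Among receptors, ITGB2 encodes the β2 integrin chain of complement receptors 3 and 4. It stood at 20.18, 20.36 and 20 FPKM with scramble and at 12.26, 11.48 and 10.40 FPKM with siDYRK2, and fell with a log2 fold change of −0.80 (adjusted p = 8.0e-05 by limma). Its α partners in those receptors, ITGAM and ITGAX, did not exceed 0.10 FPKM in a library. C1QBP, a mainly mitochondrial protein that binds C1q, rose from 70.8 ± 1.64 to 83.3 ± 1.11 FPKM (n = 3, SD; adjusted p = 8.9e-04 by limma). The C1q chains C1QA, C1QB and C1QC had no row, and C2, C4A and C4B lay between 0.08 and 0.23 FPKM. C4A and C4B are near-identical copies, so the split between them is uncertain.

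**Figure D3:**
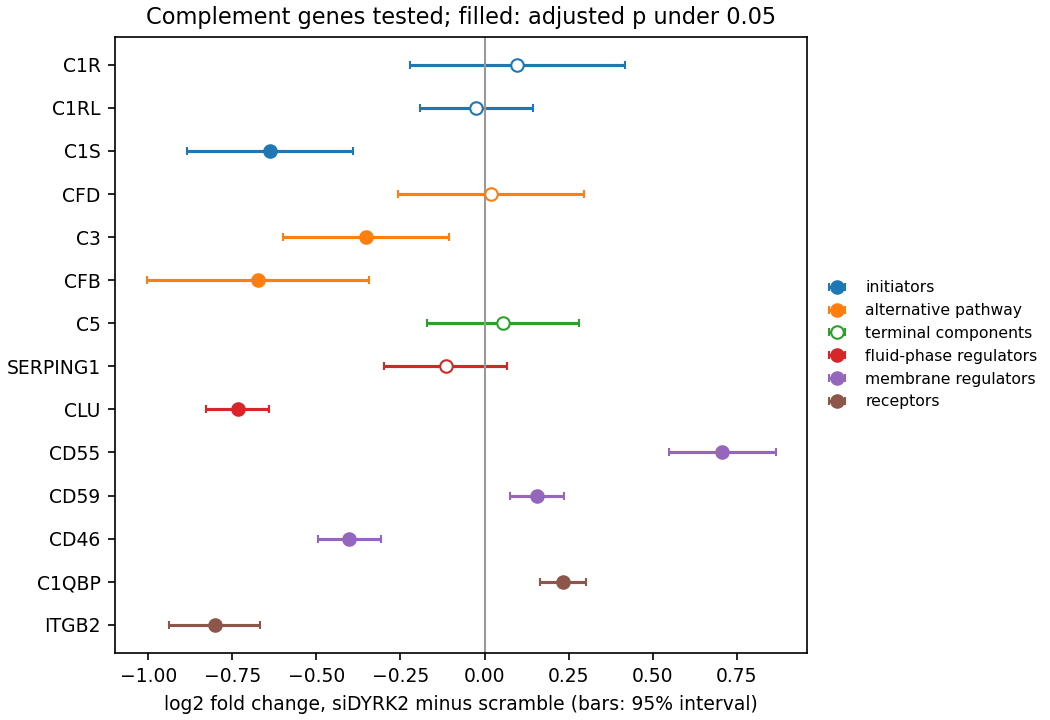
Log2 fold change (x axis, siDYRK2 minus scramble) with its 95% interval for the 14 complement genes tested, coloured by role, filled where the limma adjusted p was under 0.05. CLU and ITGB2 lie lowest at −0.73 and −0.80 and CD55 highest at 0.71, and the 3 membrane regulators lie on both sides of 0.

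CD55 and CD59 are held in the membrane by a glycosylphosphatidylinositol (GPI) anchor, whereas CD46 spans the membrane. All 28 genes of a GPI anchor list were tested, of which 7 rose, 2 fell and 19 did not pass, beside 20.4% higher and 17.9% lower over all tested genes. Their median log2 fold change was 0.01. PIGS, a subunit of the transamidase that attaches the anchor to proteins, stood at 11.49, 11.47 and 11.15 FPKM with scramble and at 18.58, 18.33 and 18.46 FPKM with siDYRK2. It rose with a log2 fold change of 0.68 (adjusted p = 1.4e-05 by limma). PIGK, the catalytic subunit, rose from 6.86 ± 0.159 to 9.97 ± 0.665 FPKM (n = 3, SD; adjusted p = 4.6e-04 by limma).

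The subunits GPAA1 (37.8 to 43.9 FPKM, adjusted p = 0.0049 by limma) and PIGU (10.7 to 12.6 FPKM, adjusted p = 0.014 by limma) also rose. The call of PIGU was lost without scramble replicate 2 (adjusted p = 0.051). PIGT, the remaining subunit, stood at 10.7 and 11.5 FPKM (adjusted p = 0.058 by limma). The grouping into the transamidase was made after the values were seen. A rise was not particular to it, because PGAP1, PGAP2 and PIGN were also called higher. Their log2 fold changes were larger than those of PIGU and GPAA1. PGAP1, which remodels the anchor after attachment, rose from 1.05 to 1.62 FPKM (adjusted p = 0.0063 by limma), and PIGC, which acts in the first step of synthesis, fell from 6.48 to 5.15 FPKM (adjusted p = 0.0019 by limma).

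**Figure D4:**
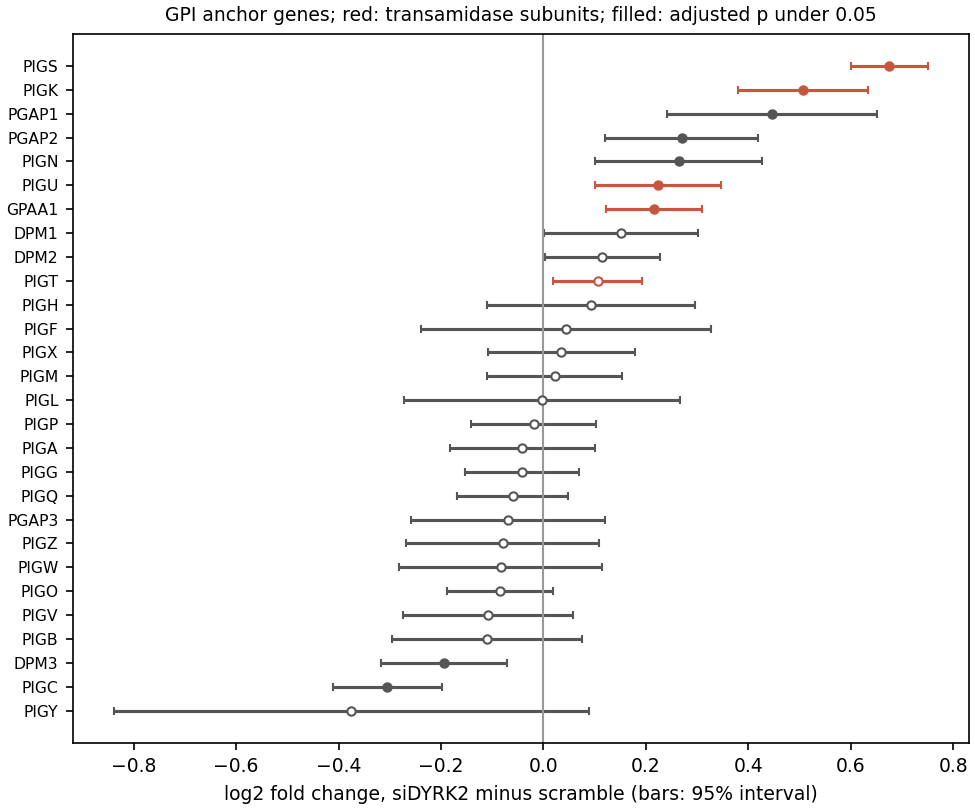
Log2 fold change (x axis, siDYRK2 minus scramble) with its 95% interval for the 28 GPI anchor genes, ordered by value, filled where the limma adjusted p was under 0.05. The 5 transamidase subunits (red) all lie above 0, from PIGT at 0.11 to PIGS at 0.68. Most other genes (grey) lie near 0. Of these, PGAP1 (0.45), PGAP2 (0.27) and PIGN (0.26) were called higher and lie above PIGU and GPAA1 (0.22 each). PIGC (−0.31) and DPM3 (−0.19) were called lower. PIGY lies lowest (−0.37, 95% interval −0.84 to 0.09) and was not called.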

How the data were processed

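The deposited table holds FPKM per gene and library as the authors computed it, per the file headers, with 2 decimals. HISAT2, StringTie and GRCh38 are named in the submitters' processing notes. Nothing on versions, annotation, strand use or shared reads was given in the sources used here. All 6 columns matched a library name in the labels. In 6329 short single-transcript genes, the best scaling brought 25.3% to 28.2% of low values within 0.1 of whole reads (20% by chance), so depth is unknown and counting intervals were not computed.

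The minimum for testing was a mean of 0.5 FPKM over all libraries. Values on the log2(FPKM + 0.5) scale were compared by limma 3.58.1 under R 4.3.3 (moderated, mean-variance trend, no block), with Benjamini-Hochberg adjustment over all 15121 genes at 0.05. The fit was also run on simulated data with independent noise per gene and few changed genes. That setting is simpler than these data and does not test the calls given here. Ratios within a library were compared by exact two-sided permutation tests. Gene coordinates and transcripts are from GENCODE 29 (GRCh38); tables were made in Python 3.11.15. The named genes are the 8 members, DYRK2, tested genes of the wider complement list, up to 6 called GPI anchor genes by adjusted p, and the 3 genes most correlated with the member of largest absolute log2 fold change on that scale (CD55); with a pseudocount of 0.1 that member would be CFB. Exceptions are marked or listed here, among them genes overlapping a member, untested genes of the wider list, PIGT, PGAP2, PIGN, PIGY and DPM3. Members and lists were chosen with earlier results of these data known.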

Additional observations from a re-analysis of the deposited data

How the results depend on the processing

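Alternatives were pseudocounts of 0.1 and 1, no filter or a mean of at least 1 FPKM, median ratio scaling, quantile normalization, rescaling without mitochondrially encoded genes, no trend, a replicate block and leaving out each library. CD46, CD55, CD59, CLU, ITGB2 and C1QBP kept direction and call in all of them, and so did C1S and CFB in each alternative in which they were tested. Of the members, 2 were higher in every alternative. The number lower was 2 to 4 with a library left out and 2 with a mean of at least 1 FPKM, where C1S and CFB were no longer tested. C3 lost its call in 7 of 15 alternatives, PIGN in 4 and DPM3 in 5. The number of GPI anchor genes called lower was 1 without the filter and 1 to 2 with a library left out. With a library left out, the log2 ratio of CFI to CFB differed by −0.955 to 0.401 and that of CD46 to C3 by −0.023 to 0.161. Uncalled values near 0 also changed sign. With a library left out, the log2 fold change ranged from −0.003 to 0.240 for C1R, from −0.091 to 0.020 for C1RL and from −0.051 to 0.126 for CFD. The cause of these shifts was not tested. Deviations of same-numbered libraries correlated at −0.08, 0.02 and −0.09, so no pairing by number was seen in the values. Such correlations cannot tell whether same-numbered libraries were handled together. With the replicate block, 2495 genes were higher and 2321 lower, against 3079 and 2714 without it; 2 members were higher and 3 lower, with C3 at an adjusted p of 0.081. CFB was not tested without scramble replicate 1 or 2, and CFI was tested only without the filter. The FPKM values do not show depth, so the counting error of CFI, CFB and C1S is unknown.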
